A study of Mus musculus with 12 samples.

Results

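The transcriptional response of wild-type (WT) mouse embryonic stem cells to 3 days of co-culture with Bmpr1a-/- cells was described from 6 of the 12 Affymetrix mouse gene arrays of the series. The 6 arrays were chosen by their titles. Of these, 3 held WT cells that had shared the culture with Bmpr1a-/- cells ("mixed") and 3 held WT cells grown alone ("separate"). All were in N2B27, a serum-free medium. Per the labels, the WT cells carried no green fluorescent protein (GFP), and the Bmpr1a-/- cells did. The mixtures began with as many cells of each kind and were split by sorting on GFP before RNA was extracted, so the mixed WT sample is the GFP-negative fraction. The other 6 arrays held Bmpr1a-/- cells, 3 sorted from the mixtures and 3 grown alone. They entered the estimate of the spread and the comparison of the responses. Genotype, cell line and GFP went together in every array and cannot be told apart. The sources used here give neither whether separate cultures passed through the sorter nor whether arrays of a group came from separate cultures. The deposited headers number the arrays of every group as experiments 1 to 3, without saying what a number shares. The p-values therefore measure the spread between these arrays, which may be technical.

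Cell competition is the loss of viable cells when fitter neighbours share the tissue, and pluripotent cells with defective bone morphogenetic protein (BMP) signalling are among the known losers. Bmpr1a is a type I receptor for BMP ligands. With a type II receptor it phosphorylates SMAD1, SMAD5 and SMAD9, which with SMAD4 drive targets such as the Id genes. Embryonic stem cells that leave the naive state move towards a primed, epiblast-like state under fibroblast growth factor (FGF) and ERK signalling. In such mixtures Bmpr1a-/- cells are the known losers and WT cells the winners.

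Promoters are shown for genes of the stress kinase, FGF/ERK and BMP groups described below: Map3k5, which had the smallest p of the WT comparison, Dusp6 and Etv5, which ERK signalling is known to induce, and Id3, a BMP target. Each runs 5′ to 3′ over 250 bases before to 50 after the gene's start as given by RefSeq, build GRCm38.p6. The motifs searched on both strands were the ETS core CCGGAA and the GC-rich SMAD element GGCGCC. Capitals mark a match to GGCGCC. No promoter shown held CCGGAA, which 14.9% of the 32851 promoters of that length in the RefSeq table hold. GGCGCC, held by 11.9% of them, occurred 2 times in Map3k5 and 1 time in Etv5. These matches describe letters, and nothing is drawn from them about a factor. Map3k5 lies at chr10:19934276-19934575 (plus strand), Dusp6 at chr10:99262981-99263280 (plus), Etv5 at chr16:22439521-22439820 (minus, the first of 2 starts listed) and Id3 at chr4:136143572-136143871 (plus).
Map3k5: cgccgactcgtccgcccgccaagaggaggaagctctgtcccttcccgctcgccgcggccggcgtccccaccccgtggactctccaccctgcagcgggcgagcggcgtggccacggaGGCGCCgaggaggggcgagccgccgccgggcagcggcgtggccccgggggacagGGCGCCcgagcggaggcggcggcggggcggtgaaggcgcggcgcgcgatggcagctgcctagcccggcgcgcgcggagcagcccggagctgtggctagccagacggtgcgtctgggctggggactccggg
Dusp6: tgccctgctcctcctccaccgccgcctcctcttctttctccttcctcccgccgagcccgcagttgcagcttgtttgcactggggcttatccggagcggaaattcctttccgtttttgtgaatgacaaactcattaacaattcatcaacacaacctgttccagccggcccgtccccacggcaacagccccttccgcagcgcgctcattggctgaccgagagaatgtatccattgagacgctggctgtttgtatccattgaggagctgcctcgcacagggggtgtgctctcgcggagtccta
Etv5: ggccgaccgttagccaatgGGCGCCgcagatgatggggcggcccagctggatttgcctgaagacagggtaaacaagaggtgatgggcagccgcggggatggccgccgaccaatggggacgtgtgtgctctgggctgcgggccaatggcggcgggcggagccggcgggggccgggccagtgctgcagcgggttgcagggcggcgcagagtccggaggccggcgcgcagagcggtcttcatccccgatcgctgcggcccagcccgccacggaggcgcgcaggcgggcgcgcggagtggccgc
Id3: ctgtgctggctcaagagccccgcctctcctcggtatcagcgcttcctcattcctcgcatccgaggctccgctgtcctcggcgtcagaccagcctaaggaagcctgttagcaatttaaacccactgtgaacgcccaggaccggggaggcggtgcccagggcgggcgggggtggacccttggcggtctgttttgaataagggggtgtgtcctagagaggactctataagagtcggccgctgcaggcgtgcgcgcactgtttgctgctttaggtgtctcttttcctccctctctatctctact

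Levels are linear RMA signal, and differences are log2 mixed minus separate with a 95% interval. RMA (robust multi-array average) subtracts background, brings arrays to a common distribution and merges the probes of a gene. The 6 WT arrays had a median signal between 51.6 and 54.3. Pou5f1 and Sox2, regulators that define pluripotent cells, averaged 2210 and 545 in mixed WT cells and 1780 and 730 in separate WT cells. The naive-state factors Esrrb, Klf4 and Zfp42 were low, at 52.7, 61.5 and 72.9 in mixed and 58.6, 68.4 and 81.0 in separate cells, against the minimum mean signal of 25.4 set for testing. Bmpr1a gave 505, 555 and 512 in mixed WT cells and 525, 588 and 534 in separate WT cells, with ranges that overlapped and a difference of -0.07 (-0.22 to 0.09). In Bmpr1a-/- cells it averaged 370 in mixed and 434 in separate culture. The sources used here do not place its probes relative to the deleted part.

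No gene passed the test between mixed and separate WT cells (limma, adjusted p under 0.05). This was 0 of 17621 genes tested, or 0%. At an unadjusted p under 0.05 there were 516 genes (2.93%), 236 higher (1.34%) and 280 lower (1.59%) in mixed cells. With the replicate number as a block, again 0 passed, and 793 had an unadjusted p under 0.05. The 3-array ranges lay apart for 1232 genes (6.99%), with 594 higher (3.37%) and 638 lower (3.62%). The median absolute difference was 0.057, the 95th percentile 0.189 and the 99th percentile 0.282. Only Usp17ld and AY036118 differed by more than 2-fold by estimate, and 6 genes by more than 1.5-fold. Whether these 2 genes were past 2-fold depended on which WT arrays were in the fit. Without mixed WT replicate 2 or separate WT replicate 1 only Greb1l was past 2-fold, and without mixed WT replicate 3 or separate WT replicate 2 only Fos. The count past 1.5-fold was 15, 15 and 9 without mixed WT replicate 1, 2 or 3, and 24, 8 and 16 without separate WT replicate 1, 2 or 3. For scale, Bmpr1a-/- cells had a median absolute difference of 0.080 between their 2 cultures, a 95th percentile of 0.345 and 279 genes (1.58%) that passed (878 with the replicate block).

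Mixed and separate WT arrays lay about as far apart as replicates did. Distance is given as the root mean square log2 difference over the tested genes. Pairs of one mixed and one separate WT array lay between 0.122 and 0.244 apart (median 0.191). Pairs within mixed WT lay between 0.160 and 0.201 apart (median 0.174), and pairs within separate WT between 0.172 and 0.237 (median 0.232). Mixed and separate Bmpr1a-/- arrays lay between 0.181 and 0.274 apart (median 0.250).

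**Figure D1:**
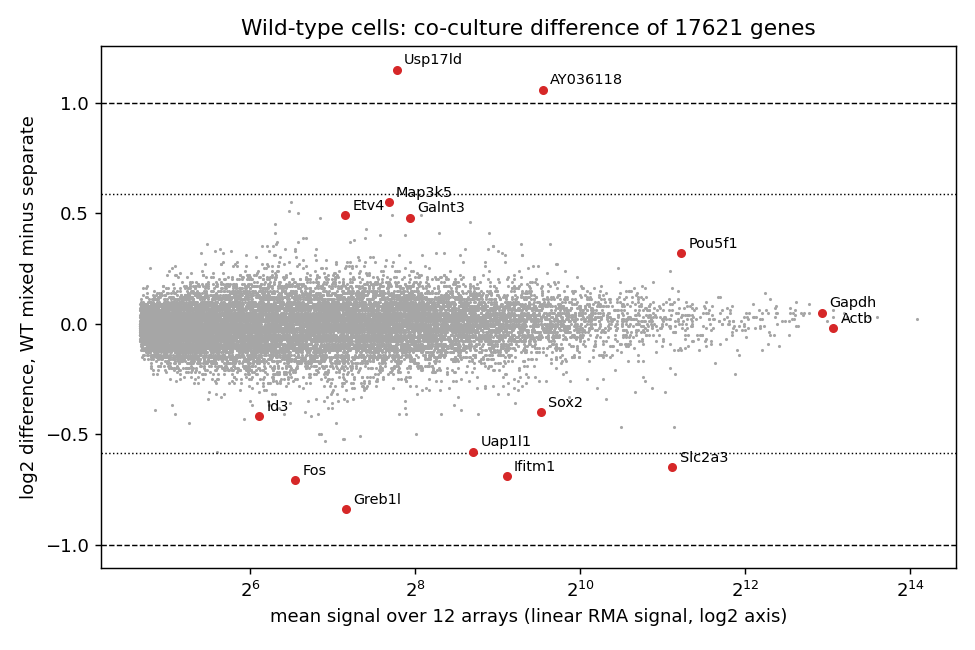
Each point is a gene, with its mean signal over 12 arrays on a log2 axis and its log2 difference (WT mixed minus separate) on the vertical axis. Dotted lines mark 1.5-fold and dashed lines 2-fold. Nearly all points lie inside the dotted lines, Usp17ld (1.15) and AY036118 (1.06) lie above the upper dashed line, and Actb (-0.02) and Gapdh (0.05) lie near 0.

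The arrays bounded the change of most genes closely. The 95% interval lay within 2-fold for 17604 genes (99.9%) and within 1.5-fold for 17314 (98.3%). In limma's moderated equivalence tests (a pair of one-sided tests per bound, adjusted over all genes), 17612 genes passed for 2-fold and 17461 for 1.5-fold. The median interval reached 0.197 to each side of its estimate. The largest change inside it was 1.2-fold for the median gene and 1.396-fold at the 95th percentile. Of the 4413 dimmest genes (signal 25.4 to 39.5), 99.9% were bounded within 1.5-fold, and of the 4395 brightest (221 to 17300) 97.0% were. Probe sets near background change less on this scale than their RNA does, so the bound of a dim gene is a bound on signal.

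**Figure D2:**
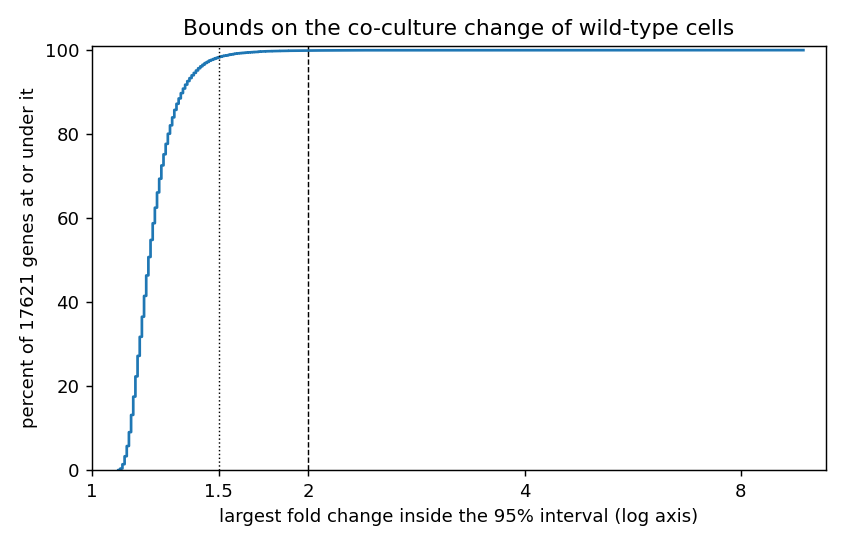
The curve gives the percent of 17621 genes (vertical axis) whose 95% interval holds no fold change above the value on the horizontal log axis. It reaches 98.3% at 1.5-fold (dotted line) and 99.9% at 2-fold (dashed line), and its last gene, Usp17ld, at 9.76-fold.

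For 17 genes the interval went past 2-fold, and most of these varied strongly between arrays of one group. Usp17ld, of a family of deubiquitinating enzymes, had 56.5, 264 and 559 in mixed and 46.3, 36.5 and 447 in separate WT cells (-0.98 to 3.29). The immediate-early genes Fos and Fosb, which cell handling is known to induce, were highest in replicate 3 of both cultures. Fos had 55.8, 48.5 and 112 in mixed and 84.7, 68.9 and 228 in separate cells, and Fosb had 71.3, 55.4 and 178 in mixed and 75.1, 79.0 and 334 in separate cells. The groups of both genes overlapped. Dppa5a, a naive-state gene, was highest in replicate 1 of both cultures, with 557, 208 and 267 in mixed and 729, 364 and 310 in separate cells. Tdgf1, the Nodal co-receptor, was also highest in replicate 1 of both, with 261, 86.4 and 117 in mixed and 201, 77.4 and 89.7 in separate cells.

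Of the 17, intervals of 4 genes lay on one side of 0, all lower in mixed cells by estimate. Slc2a3, the glucose transporter GLUT3, had 1410, 1730 and 1960 in mixed and 2080, 3170 and 2830 in separate WT cells, with no overlap. Its difference was -0.65 (-1.12 to -0.18; limma, adjusted p = 1). Ifitm1, an interferon-induced membrane protein, had 321, 210 and 193 in mixed and 485, 368 and 305 in separate cells (-0.69, -1.12 to -0.26), and 1 mixed array lay above the lowest separate one. Greb1l was at -0.84 (-1.55 to -0.13) and Sfrp1, a secreted WNT inhibitor, at -0.52 (-1.01 to -0.03). The other 8 were AY036118, Rny1, Mt2, Zfp980, LOC100043292, Mrpl22, Snord15b and ENSMUSG00000040847, whose intervals held 0.

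At the other end, the 10 bright genes with the tightest bounds had 95% intervals that reached 1.1-fold to 1.11-fold at most. They were Hspa4 (a chaperone), Arpc2 and Capzb (actin assembly), Gtse1, Mcm4 (the replicative helicase), Hnrnpu, Rack1 and Btf3 (translation), Tnpo2 (nuclear import) and LOC674685. Mcm4 had 807, 799 and 763 in mixed and 791, 821 and 755 in separate WT cells, a difference of 0.00 (-0.13 to 0.14). Hspa4 had 2030, 2030 and 2010 in mixed and 1970, 2070 and 2040 in separate cells (0.00, -0.13 to 0.13). In both, the groups overlapped and the means nearly coincided. Of the 27 broadly expressed reference genes measured, 26 were bounded within 1.5-fold, with a median of -0.01. Actb was at -0.02 (-0.15 to 0.12) and Gapdh at 0.05 (-0.07 to 0.17).

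The gene with the smallest p was Map3k5, also called ASK1, a kinase upstream of JNK and p38 in the stress response. It had 258, 278 and 264 in mixed and 177, 190 and 180 in separate WT cells. Every mixed array was above every separate one. The means were 267 ± 10.4 in mixed and 182 ± 6.83 in separate cells (SD, n = 3 each). The difference was 0.55 (0.39 to 0.70), with an adjusted p of 0.07 in limma, which missed the threshold. Every other gene had an adjusted p of about 1.

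The next genes higher in mixed WT cells by estimate had similar, small differences. Galnt3, which starts mucin-type O-glycosylation, had 328, 330 and 375 in mixed and 260, 246 and 234 in separate cells (0.48, 0.28 to 0.68). L1td1, an RNA-binding protein of pluripotent cells, had 466, 489 and 448 in mixed and 318, 359 and 382 in separate cells (0.41, 0.23 to 0.59). Skil, the SMAD co-repressor SnoN, had 474, 406 and 442 in mixed and 354, 335 and 345 in separate cells (0.35, 0.19 to 0.51). The groups did not overlap in any of these. Like Map3k5, they were chosen for a small p, which favours groups that lie apart, so nothing is drawn from it. Ranges lay apart in 6.99% of all genes. Ugt8a, which makes galactosylceramide (0.43), Slc35d3 (0.50), Pdzd4 (0.33), Mertk, a receptor for the uptake of dying cells (0.31), Mmp25, a membrane metalloprotease (0.28), and Noa1, a mitochondrial GTPase (0.30), completed the 10 genes of smallest p.

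Among genes lower in mixed WT cells by estimate, Lamb2, a laminin chain, had 132, 128 and 135 in mixed and 165, 164 and 157 in separate cells (-0.30, -0.43 to -0.17). Macroh2a1, a histone variant of silent chromatin, had 236, 234 and 234 in mixed and 278, 373 and 290 in separate cells (-0.41, -0.61 to -0.20). Uap1l1, related to an enzyme of amino sugar metabolism, had 249, 194 and 257 in mixed and 368, 355 and 318 in separate cells (-0.58, -0.91 to -0.25). In all 3 the groups lay apart, which their choice by small p favours. Fgfr2, an FGF receptor, had 137, 161 and 130 in mixed and 167, 244 and 204 in separate cells (-0.51, -0.84 to -0.18), also without overlap. Ntf3, a neurotrophin (-0.32), Cited1, a transcriptional co-activator (-0.27), Tlcd5 (-0.31), Bdh2 (-0.41), Pmp22 (-0.42) and Ifitm1 made up the rest. None of these passed after adjustment.

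**Figure D3:**
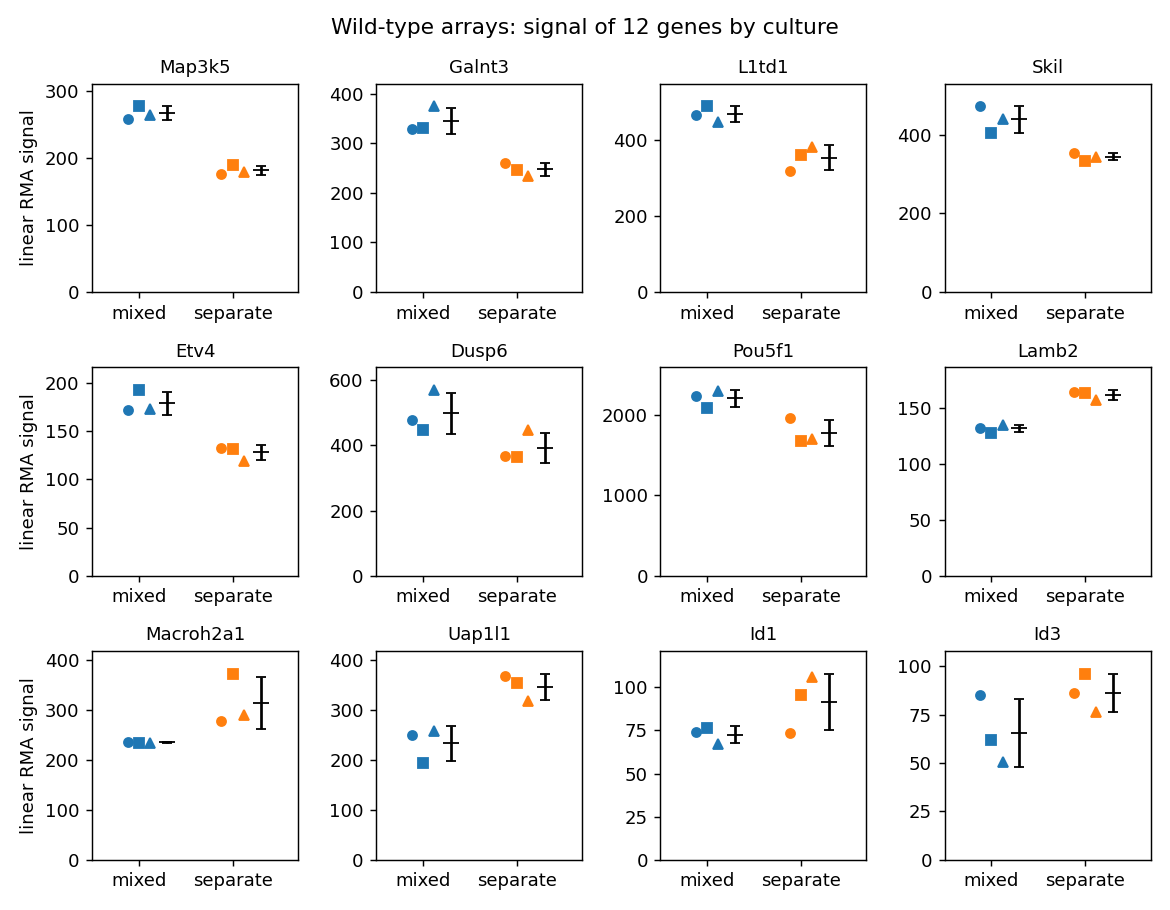
Linear RMA signal (vertical axes, from 0) of 12 genes in the 3 mixed (left, blue) and 3 separate (right, orange) WT arrays, with circles, squares and triangles for replicates 1, 2 and 3 and bars for mean ± SD. Map3k5 lies between 258 and 278 in mixed and 177 and 190 in separate cells, while Id1 and Id3 overlap between the cultures.

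Gene lists were read against all genes, of which 46.1% had an estimate above 0, with a median of -0.01. No member of any list passed in WT cells. In bulk RNA, fewer cells of a kind and less RNA per cell cannot be told apart.

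The BMP pathway showed small values of both signs in its machinery and mostly negative ones in its targets. Of 17 BMP and activin receptors and Smads, 8 had estimates above 0 and 9 below, with a median of 0.00, and all 17 were bounded within 1.5-fold. Acvr1b, a type I receptor for activin and Nodal, was at 0.16 (-0.01 to 0.32) and Bmpr1b, the other main type I BMP receptor, at -0.11 (-0.27 to 0.05). Of 26 BMP targets, 24 had estimates below 0 and 2 above, with a median of -0.09, and 24 were bounded within 1.5-fold. The Id genes encode inhibitors of basic helix-loop-helix factors. Id1 had 74.1, 76.4 and 67.3 in mixed and 73.3, 95.6 and 106 in separate WT cells (-0.32, -0.56 to -0.08). Id3 had 84.9, 61.8 and 50.4 in mixed and 86.1, 96.2 and 76.5 in separate cells (-0.42, -0.80 to -0.04). Groups overlapped in both. Id4 had 60.0, 65.6 and 60.7 in mixed and 66.1, 76.6 and 84.4 in separate cells (-0.28, -0.46 to -0.10), and its groups did not overlap. Id2 was at -0.23 (-0.63 to 0.17). Smad7, an inhibitory Smad, went the other way by estimate (0.22, -0.01 to 0.46). The per-array medians of the list overlapped, at -0.06, -0.01 and -0.08 in mixed and -0.07, 0.04 and 0.13 in separate cells, relative to the mean of the 6 arrays. Most BMP targets were dim, with a median signal of 44.7 in mixed and 50.5 in separate cells.

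The Nodal pathway had 9 of 15 members above 0 (median 0.05) and WNT targets 10 of 23 (median -0.04). Nodal itself had 69.4, 69.1 and 59.3 in mixed and 63.3, 56.8 and 64.4 in separate WT cells (0.10, -0.30 to 0.50), with overlapping groups. Lefty1 and Lefty2, inhibitors of Nodal, were at -0.17 (-0.72 to 0.38) and 0.09 (-0.21 to 0.39). The WNT targets Tcf7 and Axin2 were at 0.24 (-0.02 to 0.50) and -0.04 (-0.28 to 0.19).

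FGF and ERK targets were the list with the highest WT median. Of 22 members, 17 had estimates above 0 and 5 below, with a median of 0.08, and 17 were bounded within 1.5-fold. In mixed cells the per-array medians came to 0.03, 0.08 and 0.06, and in separate cells to -0.09, -0.06 and 0.00, without overlap. The list and its members were chosen with earlier results of these data known, so nothing is drawn from this. Etv4, an ETS factor induced by FGF, had 172, 193 and 173 in mixed and 133, 132 and 119 in separate WT cells (0.49, 0.21 to 0.76). Its relative Etv5 had 429, 386 and 337 in mixed and 350, 269 and 226 in separate cells (0.46, 0.14 to 0.78). Dusp6, a phosphatase that limits ERK, had 477, 448 and 570 in mixed and 367, 363 and 446 in separate cells (0.34, 0.13 to 0.56). The groups lay apart in Etv4 and Dusp6 and overlapped in Etv5. Spry4, a feedback inhibitor, was at 0.31 (-0.14 to 0.77). The lowest of the 5 members below 0 were Dusp5 at -0.16 (-0.37 to 0.05) and Fgfbp1 at -0.11 (-0.39 to 0.18). Both were named after their values were seen. With Il17rd (0.19), named after its value was seen, Etv4, Etv5 and Dusp6 were the 4 members with an unadjusted p under 0.05, a threshold that 2.93% of all genes met.

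Regulators of pluripotency differed in sign among themselves. Of 29 naive pluripotency genes, 11 had estimates above 0 (median -0.05), of 20 general pluripotency genes 13 (median 0.04) and of 31 primed epiblast genes 21 (median 0.06). Pou5f1 had 2240, 2090 and 2300 in mixed and 1960, 1680 and 1700 in separate WT cells (0.32, 0.13 to 0.50), with no overlap. Sox2 had 459, 659 and 517 in mixed and 517, 875 and 798 in separate cells (-0.40, -0.78 to -0.02), with overlap. Klf4, Esrrb and Zfp42 were at -0.14, -0.14 and -0.11, with intervals that held 0. Among primed genes, Dnmt3b, a DNA methyltransferase, had 2220, 2350 and 2190 in mixed and 2000, 1930 and 1980 in separate cells (0.19, 0.06 to 0.32), without overlap. Fgf5 was at 0.13 (-0.19 to 0.46) and Otx2 at -0.09 (-0.40 to 0.21). Of 30 primitive streak and mesendoderm genes, 15 lay above 0 (median 0.01). Among them Eomes was at 0.41 (0.02 to 0.80) at a low signal, with 56.4, 60.7 and 56.0 in mixed and 43.7, 45.5 and 40.9 in separate cells, and T at 0.12 (-0.21 to 0.45).

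Growth and death regulators known from cell competition were bounded about as often as all genes, of which 98.3% were bounded within 1.5-fold. Myc, whose level is known to set winners and losers in the mouse epiblast, had 108, 103 and 93.1 in mixed and 77.8, 90.7 and 95.5 in separate WT cells. The groups overlapped, and the difference was 0.21 (-0.12 to 0.54). Mycn was at 0.01 (-0.38 to 0.40). Of 43 genes of Myc and ribosome production, 27 lay above 0 (median 0.05), and all 43 were bounded within 1.5-fold. Of 41 p53 targets, 15 lay above 0 (median -0.06) and 40 were bounded within 1.5-fold. Trp53 itself, which encodes p53, was at 0.05 (-0.15 to 0.25), its inhibitor Mdm2 at -0.03 (-0.30 to 0.24) and its target Cdkn1a, a cell cycle inhibitor, at -0.12 (-0.35 to 0.11). All 36 genes of the apoptosis machinery (18 above 0, median 0.00) and all 39 of the mTOR pathway (15 above 0, median -0.02) were bounded within 1.5-fold. Mtor was at 0.04 (-0.16 to 0.25). Of 42 entries for cell competition, polarity and Hippo genes, in which Dcaf1 occurs more than once, 25 lay above 0 (median 0.01). Llgl2 was at 0.19 (0.00 to 0.38) and Pard6a at -0.25 (-0.45 to -0.06), both of the polarity machinery. Of 26 stress kinase genes, 10 lay above 0 (median -0.03), Map3k5 among them.

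Cell cycle genes did not stand apart either. Of 37 G1 and S genes 22 lay above 0 (median 0.01) and of 31 G2 and M genes 10 (median -0.02), and all were bounded within 1.5-fold, against 98.3% of all genes. Ccne1, the cyclin that starts S phase, had 904, 1000 and 947 in mixed and 755, 800 and 814 in separate WT cells (0.27, 0.08 to 0.46). Every mixed array was above every separate one.

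Of the metabolic lists, lysosome and autophagy genes had the most one-sided estimates. Of 57 members, 49 lay below 0 and 8 above, with a median of -0.09, and 53 were bounded within 1.5-fold. The per-array medians overlapped, at -0.02, -0.08 and -0.03 in mixed and 0.05, 0.13 and -0.07 in separate cells. Hexa, which degrades gangliosides in lysosomes, had 318, 294 and 390 in mixed and 410, 407 and 394 in separate cells (-0.28, -0.60 to 0.03). Its ranges lay apart by a narrow margin. Of 37 glycolysis and hypoxia genes, 9 lay above 0 (median -0.06), with Slc2a3 the lowest. Cholesterol and lipid synthesis had 20 of 33 above 0 (median 0.01) and the respiratory chain 17 of 38 (median -0.01).

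Stress and handling lists were near 0 as medians. ATF4 and unfolded protein response genes had 24 of 35 above 0 (median 0.03) and heat shock genes 11 of 19 (median 0.04). The dissociation and sorting response had 9 of 28 above 0 (median -0.05), and 26 members were bounded within 2-fold. Dusp1 and Jun, early genes of that list, were at -0.28 (-0.60 to 0.03) and -0.22 (-0.62 to 0.19). Mixed cells were sorted. The part of sorting in these values was not tested. Interferon and MHC class I genes had 5 of 22 above 0 (median -0.05). B2m, which encodes the MHC light chain, had 400, 349 and 467 in mixed and 565, 591 and 453 in separate WT cells (-0.41, -0.74 to -0.08), with overlap.

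Lists of other states and cell types had medians between -0.08 and 0.05, against -0.01 for all genes. The percent of members above 0 ran from 21.7 in extraembryonic endoderm markers to 68.8 in epithelial junctions, against 46.1 for all genes. The 2-cell embryo list had 3 of 9 above 0 (median -0.01), germ cell genes 8 of 21 (median -0.01), imprinted genes 8 of 25 (median -0.05) and epithelial junctions 22 of 32 (median 0.05). H19, an imprinted non-coding RNA, was at -0.34 (-0.92 to 0.24) and Grb10 at 0.34 (0.02 to 0.66). Trophoblast markers had 7 of 19 above 0 (median -0.02), with summed signals of 2730 to 3200 in mixed and 2970 to 3310 in separate cells, and Elf5 at 32.7 in mixed and 33.3 in separate cells. Tpbpa and Prl3d1 were not among the tested genes. Extraembryonic endoderm markers had 5 of 23 above 0 (median -0.04) and summed to 3560 to 4110 in mixed and 4000 to 4320 in separate cells. Gata6, Sox17 and Afp were at 36.1, 26.9 and 29.5 in mixed and 35.0, 27.9 and 31.0 in separate cells, near the minimum of 25.4. Gata4 was higher, at 51 in mixed and 58.8 in separate cells. Neural markers had 11 of 29 above 0 (median -0.05), summing to 2250 to 2640 in mixed and 2180 to 2600 in separate cells. Sox1 was at 114 in mixed and 136 in separate cells, and Pax6 at 46.8 in mixed and 49.6 in separate cells. Tubb3 was at 495 in mixed and 457 in separate cells. Fibroblast markers had 7 of 24 above 0 (median -0.08), summing to 3340 to 3860 in mixed and 3680 to 4030 in separate cells. Dcn was at 35.0 in mixed and 36.9 in separate cells. Col1a1 and Twist2 were higher, at 112 and 47.6 in mixed and 122 and 50.2 in separate cells. The part of other cell types in the WT values was not tested.

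**Figure D4:**
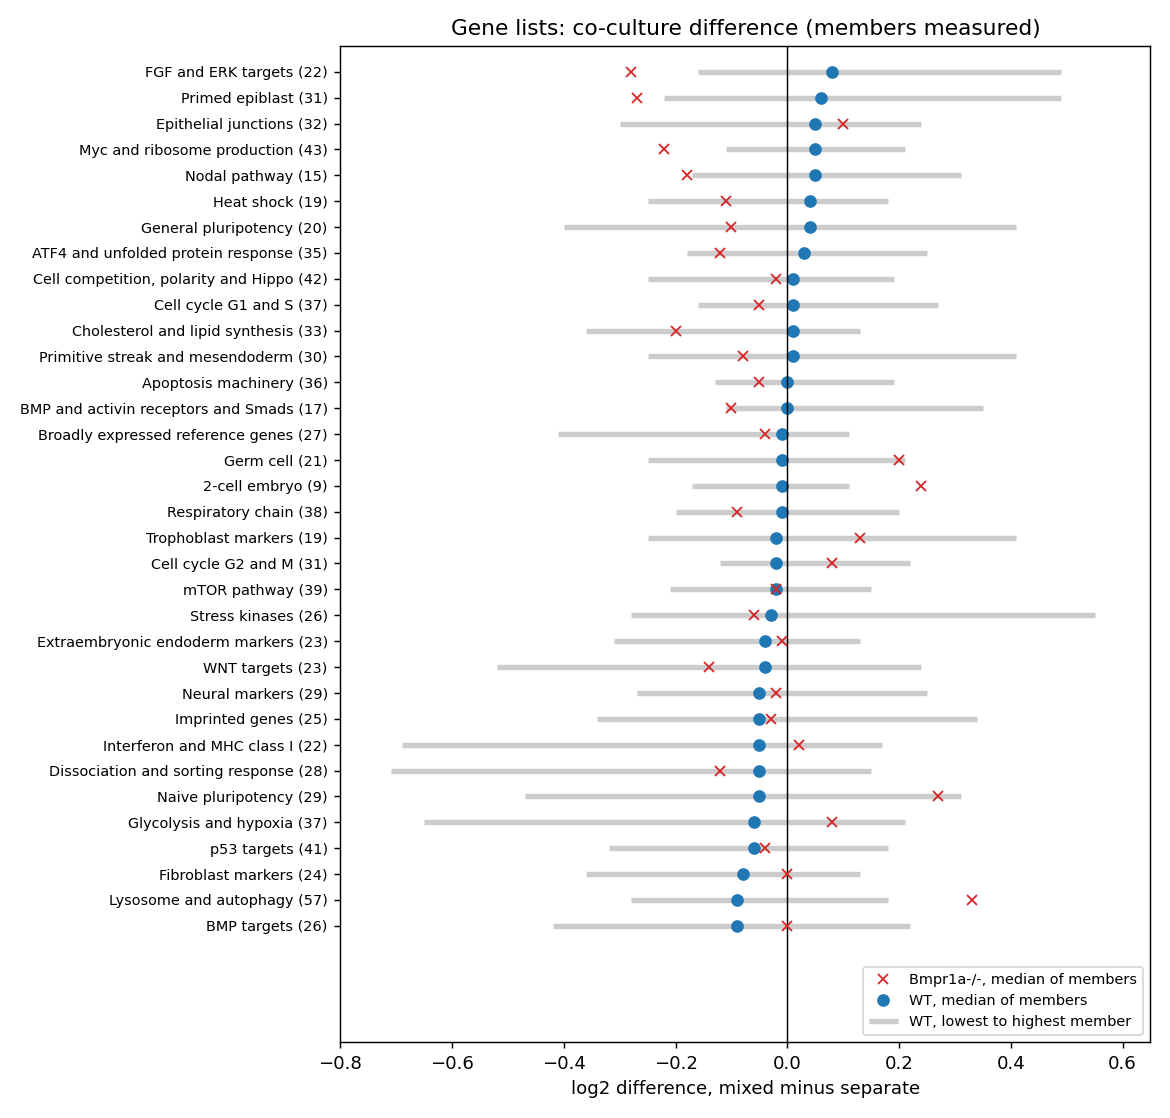
Rows are the 34 gene lists (members measured in brackets), and the horizontal axis is the log2 difference, mixed minus separate. Red crosses are medians in Bmpr1a-/- cells, blue dots medians in WT cells, and grey bars run over the WT members, lowest to highest. WT medians lie between -0.09 and 0.08, with FGF and ERK targets at the top. BMP targets and lysosome and autophagy genes, both at -0.09, are at the bottom.

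The WT response was then set against that of the Bmpr1a-/- cells of the same mixtures. The 2 contrasts share no array. Deviations from the group mean of same-numbered mixed arrays of the 2 genotypes did correlate across genes (0.64, 0.38 and 0.42). The mixed arrays thus share variation that their number marks. For same-numbered separate arrays of the 2 genotypes the values were 0.06, 0.05 and 0.34. The 140 genes lower in mixed Bmpr1a-/- cells (median there -0.49) had a WT median of 0.10 and a WT range of -0.23 to 0.55. Of these, 115 (82.1%) had WT estimates above 0, against 46.1% of all genes. The 139 genes higher in mixed Bmpr1a-/- cells (median there 0.54) had a WT median of -0.11 and a range of -0.58 to 0.21, and 119 (85.6%) had WT estimates below 0, against 53.9% of all genes. In each of the 279, the WT 95% interval excluded the estimate of the Bmpr1a-/- cells. The 279 were chosen for estimates large against a spread that both contrasts share, and those estimates carry error too. Exclusion was thus likely for any WT value near 0, and nothing is drawn from it. Over all genes the signs of the estimates were opposite in 53.2%, and in 83.9% of the 279. By replicate number, the median WT difference of the 140 was 0.14, 0.07 and 0.10, and that of the 139 was -0.18, -0.18 and 0.02. Without replicate 1 of separate WT the median of the genes higher in mixed Bmpr1a-/- cells was -0.04. Across all 17621 genes, Pearson's r between the changes was -0.21 and Spearman's rho -0.14, a description over genes that share arrays.

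The difference between the responses (Bmpr1a-/- change minus WT change) passed for 121 genes (0.687%), of which 107 were among the 279. With the replicate block, 387 passed, and the percent of opposite sign among the 878 genes that then passed in Bmpr1a-/- cells was 72.8, against 83.9 without it. Fst, an activin antagonist, averaged 97.7 in mixed and 89.8 in separate WT cells (0.13, -0.37 to 0.62). Its change in Bmpr1a-/- cells was -2.40, and the difference of -2.53 passed (limma, adjusted p = 0.0082). Nodal was at -1.30 in Bmpr1a-/- and 0.10 in WT cells, Myc at -1.13 in Bmpr1a-/- and 0.21 in WT cells, and Dusp6 at -0.67 in Bmpr1a-/- and 0.34 in WT cells. Bhlhe41, a clock-related repressor, was at 1.25 in Bmpr1a-/- and -0.50 in WT cells, and Fabp3, a fatty acid carrier, at 1.22 in Bmpr1a-/- and -0.39 in WT cells. Aqp3, a water and glycerol channel, was at 1.17 in Bmpr1a-/- and 0.00 in WT cells, with 72.2, 84.5 and 73.2 in mixed and 87.7, 65.2 and 78.5 in separate WT cells. All of these differences passed. In the 12 fits with 1 array left out, those of Fst, Dusp6 and Bhlhe41 passed in all 12. Myc passed in 8, Fabp3 in 4, Nodal in 2 and Aqp3 in 1. FGF and ERK targets had a median of -0.28 in Bmpr1a-/- and 0.08 in WT cells, and 6 members passed the test of the difference. Lysosome and autophagy genes had a median of 0.33 in Bmpr1a-/- and -0.09 in WT cells, and 4 passed. The count of 121 changed in every fit with 1 array left out. It was 41, 25 and 62 without mixed WT replicate 1, 2 or 3. Without separate WT replicate 1, 2 or 3 it was 38, 59 and 111. It was 83, 36 and 35 without mixed Bmpr1a-/- replicate 1, 2 or 3. Without separate Bmpr1a-/- replicate 1, 2 or 3 it was 70, 60 and 132. Leaving out an array also lowers precision, and the cause of these changes was not tested. The 279 genes numbered 50 and 66 without mixed Bmpr1a-/- replicate 2 or 3, and 130 and 73 without separate Bmpr1a-/- replicate 1 or 2. They numbered 221 to 390 in the other fits with 1 array left out, and 454 with array weights. The percent of opposite sign stayed between 66.2 and 97.3.

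**Figure D5:**
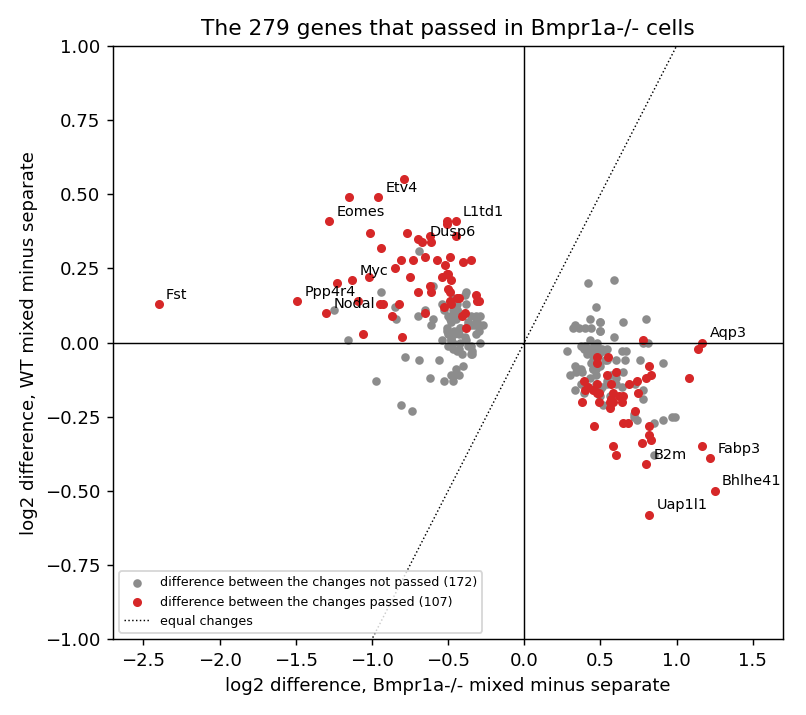
Each point is one of the 279 genes that passed in Bmpr1a-/- cells, with its log2 change there (mixed minus separate) on the horizontal and its WT change on the vertical axis. The dotted line marks equal changes, and red marks the 107 genes whose difference between the changes passed. Genes on the left lie mostly above 0 (115 of 140) and genes on the right mostly below 0 (119 of 139).

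Genes that separate the lines were used to see whether mixed WT cells shifted towards the Bmpr1a-/- line. The 20 genes highest in Bmpr1a-/- over WT arrays (by 1.79 to 4.75, chosen without regard to culture) had a median WT difference of -0.065. In mixed WT cells, 4 of 20 lay towards the Bmpr1a-/- level (above 0), against 46.1% of all genes above 0. On linear signal, the median shift of the 20 was -0.795% of the way to the mixed Bmpr1a-/- level (range -8.06% to 5.32%). Xist, the RNA of the inactive X, had 688 in mixed and 680 in separate Bmpr1a-/- cells, and 26.7 in mixed and 27.6 in separate WT cells. The 20 genes lowest in Bmpr1a-/- relative to WT arrays (-1.53 to -0.94) had a median WT difference of -0.035. Of these 20, 12 lay towards the Bmpr1a-/- level (below 0), against 53.9% of all genes below 0. The median shift of the 20 on linear signal was 5.90% of the way to the mixed Bmpr1a-/- level (range -48.6% to 51.9%). In limma, 2 of the 20 had an unadjusted p under 0.05. Sfrp1 shifted towards that level, and Kctd12b, named after its value was seen, away from it.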

How the data were processed

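RNA of mouse embryonic stem cells was measured on 12 Affymetrix mouse gene arrays, in 4 groups of 3. Per the submitters' processing notes, the authors used RMA in Affymetrix Expression Console 1.2. The deposited series table held log2 values that, per the file headers, the authors had centred per probe set. A deposited workbook held the same values and linear intensity values that the authors' header calls raw. After log2, each probe set sat at one fixed offset to the series table (maximal spread over arrays 2.2e-06), so they are RMA signal, and they served for levels and for choosing probe sets. RMA matches arrays, so a shift shared by all genes would not show. The file headers name 1 more array that the authors excluded.

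Of 28815 probe sets, 22700 had 1 symbol, 2478 several and 3637 none. Single symbols were matched to RefSeq GRCm38.p6 (16822 current, 3900 updated, 1978 kept as in the file). Probe sets under the 20th percentile of mean signal (25.4) were left out, and the brightest stood for each gene, which left 17621 genes. The columns of values that could not be mapped to a sample numbered 0.

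A limma model (version 3.58.1, R 4.3.3) with 1 mean per group used all 12 arrays (8 residual degrees of freedom, a median of 12.7 after moderation), tested on simulated data first. The contrasts were mixed minus separate in each genotype and the difference between them. The call was an adjusted p under 0.05 (Benjamini-Hochberg over the 17621 genes, two-sided). Intervals are 95% moderated intervals. The array number limits precision.

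The 34 lists (1050 entries, 987 measured) came from general knowledge. Members, lists and tests were chosen with earlier results of these data known. The naming rule picked Bmpr1a, the 10 smallest p each way, the 5 largest differences each way and the 5 widest intervals. It also picked the 10 tightest bounds in the top 10% of signal, the 3 largest differences per list and a fixed set of regulators. The 10 largest changes in Bmpr1a-/- cells were added. Only part of the genes so picked is described in the text. Outside the lists the rule skips predicted genes (Gm with a number, Rik clones) and the families Olfr, Vmn, Mir, Snor, Rps and Rpl. Defining markers of cell types were named in part as well. A gene that the rule names is not reported here. Snord15b, Rny1, Mt2, LOC100043292, Mrpl22, ENSMUSG00000040847, Il17rd, Dusp5, Fgfbp1, Dcaf1, Kctd12b and Xist are named beside their counts.

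Replicate numbers were checked for pairing. The deposited headers call them experiments 1 to 3. Deviations from the group mean of same-numbered mixed and separate arrays correlated at 0.39, 0.15 and 0.37 in Bmpr1a-/- cells and at 0.57, -0.10 and 0.14 in WT cells. The numbers were thus taken to pair the Bmpr1a-/- but not the WT arrays. The fit has no block, and blocked counts stand beside the results. Alternatives were a replicate block, only the 6 WT arrays, quantile normalization again, other filters, every probe set, trended and robust moderation, array weights and leaving out each array.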

Additional observations from a re-analysis of the deposited data

Results flagged for a closer look

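For 31 of the 160 genes that the naming rule picked, Bmpr1a-/- and WT cells differed in their co-culture change when that difference itself was tested (limma, adjusted p under 0.05, Bmpr1a-/- change minus WT change). Over all 17621 genes tested, 121 (0.687%) passed. Many of the 31 were picked for a large WT or Bmpr1a-/- change, and genes whose estimates differ in sign reach a larger difference. The estimates had opposite signs in all 31, with that of WT cells at 0.00 for Aqp3. Of these, 11 passed however 1 array was left out.

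The difference was below 0 for 21 genes, whose estimates were higher in mixed than in separate WT cells. Among developmental and signalling genes it was -2.53 for Fst, -1.69 for Eomes, -1.40 for Nodal, -1.24 for Smad7, -1.08 for Fgf5 and -0.59 for Skil. Among FGF and ERK targets and related genes it was -1.44 for Etv4, -1.33 for Myc, -1.01 for Dusp6 and -1.01 for Epha2. Among the genes with the smallest WT p it was -0.86 for Mmp25, -0.86 for L1td1, -0.85 for Slc35d3, -0.82 for Map3k5, -0.78 for Ugt8a and -0.69 for Galnt3. It was -1.63 for Ppp4r4, -1.44 for Nefl, -1.34 for Psors1c2, -1.10 for Nefm and -0.67 for Ccne1.

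The difference was above 0 for 10 genes. It was 0.49 for Lamb2, 0.76 for Macroh2a1, 1.10 for Hexa, 1.13 for Apoe, a lipid carrier, and 1.17 for Aqp3. It was 1.21 for B2m, 1.40 for Uap1l1, 1.51 for Lrrc31, 1.61 for Fabp3 and 1.76 for Bhlhe41. The genes that passed in every fit with 1 array left out were Fst, Ppp4r4, Etv4, Nefl, Smad7, Dusp6, Mmp25, L1td1, Map3k5, Uap1l1 and Bhlhe41.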

How the results depend on the processing

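No gene passed between mixed and separate WT cells under any of the 21 alternatives run. With the replicate number as a block, 0 genes passed, with 793 at an unadjusted p under 0.05. Of all 12 arrays 9, and of the 6 WT arrays 3, correlated best with their own number, which the deposited headers give as an experiment. In every alternative the counts bounded within 2-fold and 1.5-fold stayed within 1.5 times the values reported, at 13411 to 20970 and 13159 to 20597, as the number of genes tested changed. The difference between the responses passed for 387 genes with the replicate block, which included all 121, for 209 with array weights and for 25 to 132 with 1 array left out. The cause was not tested. The WT median of genes lower in mixed Bmpr1a-/- cells was 0.06 with the block and 0.07 to 0.20 with 1 array left out, and that of genes higher there -0.15 to -0.04. No WT list or gene was called. Of the estimates, 16 of 34 list medians and 27 of 160 genes changed sign, or left 0.00, under at least 1 alternative. Tdgf1 ranged between -0.15 and 0.73 and Zfp42 between -0.37 and 0.24. Of list values, 14 of 714 moved by more than their spread, 6 of them of trophoblast markers. Gapdh was at 0.03 and 0.00 under the 2 renormalizations. One of these, over tested genes only, was chosen after seeing the data. The difference could not be fitted with only the 6 WT arrays. Dim probe sets limit what a bound says about RNA, and 3 arrays a group limit all intervals. A shift of all genes would be removed by RMA.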

Other observations

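Probe sets outside the tested genes held no call either, and were bounded less often than the 98.3% of tested genes. Of 1912 probe sets with several symbols, 0 passed between mixed and separate WT cells in limma, with 32 at an unadjusted p under 0.05, and 1835 were bounded within 1.5-fold. Of 2112 probe sets without a symbol, 0 passed in limma, with 57 at an unadjusted p under 0.05, and 1922 were bounded within 1.5-fold.

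Of the 516 genes with an unadjusted p under 0.05 between WT cultures, 69.6% had an estimate of opposite sign in Bmpr1a-/- cells, against 53.2% of all genes. The share was 80.9% for the 236 higher in mixed WT cells and 60.0% for the 280 lower. The 53.2% counts both directions and is not matched to either, as the median Bmpr1a-/- change of all genes was -0.02. No test of these shares was made.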
